A study of Canis lupus familiaris with 34 samples.

Results

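The WNT ligands, their receptors and their secreted antagonists were examined in mitral valves of 34 Cavalier King Charles Spaniels. The genes were taken by symbol from the deposited table: every WNT ligand, Frizzled receptor, co-receptor or alternative receptor, R-spondin, secreted antagonist, and the pathway genes AXIN2, LEF1 and TCF7. This gave 51 genes of 22035 gene symbols, held in a table of 23768 features. By role they were 19 WNT ligands, 10 Frizzled receptors, 5 co-receptors or alternative receptors (LRP5, LRP6, RYK, ROR1 and ROR2), 4 R-spondins, 10 secreted antagonists (SFRP1, SFRP2, SFRP4, SFRP5, FRZB, DKK1 to DKK4 and WIF1) and 3 target or transcription factor genes. FRZB is the gene also called SFRP3. Of the 51 genes, 47 had at least 100 counts summed over all dogs and were tested, and WNT1, WNT3A, WNT8A and RSPO4 were not.

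WNT proteins are lipid-modified secreted ligands that bind Frizzled receptors on nearby cells. Together with the co-receptors LRP5 and LRP6 they protect beta-catenin from breakdown, and beta-catenin then drives target genes through TCF and LEF transcription factors, whereas ROR and RYK receptors carry signals that do not need beta-catenin. R-spondins keep Frizzled receptors on the cell surface, SFRP proteins and WIF1 bind the ligands, and DKK1, DKK2 and DKK4 act on LRP5 and LRP6. In heart valves the pathway is best known from cushion formation in the embryo and from work on thickened or calcified adult leaflets.

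All dogs were privately owned, were about 10 years old and were euthanised electively, and whole mitral valve was used for RNA sequencing. The 10y-noCHF group held 19 dogs (10 females and 9 males) without congestive heart failure (CHF), which per the study's methods ranged from no identifiable structural heart disease to myxomatous mitral valve disease (MMVD) with heart enlargement, so it is not a group of healthy valves. The 10y-MMVD-CHF group held 15 dogs (6 females and 9 males) with CHF caused by MMVD. The comparison asked which genes differ in valves once the disease has led to CHF.

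Each library held between 46185256 and 82361245 counts. Markers of valve interstitial cells, the fibroblast-like cells of the leaflet, were high in every dog, with median levels of 6767 CPM (counts scaled to library size) for POSTN and 3738 CPM for LUM. Heart muscle RNA varied widely: the summed level of 18 cardiomyocyte genes ranged from 56.6 to 27426 CPM in 10y-noCHF and from 79.9 to 56183 CPM in 10y-MMVD-CHF. The summed level of red blood cell genes also varied widely, from 6.62 to 1026 CPM in 10y-noCHF and from 4.32 to 4270 CPM in 10y-MMVD-CHF. HBA1 and HBA2 had the same values, so 1 measurement entered this sum 2 times. The endothelial marker CLDN5 was near 0, with a median of 0.599 CPM, while PECAM1, another endothelial marker, had a median of 316 CPM. Dog CAV1047, a female with CHF, had the most heart muscle RNA, and dog CAV614, a male with CHF, stood at an extreme for more WNT pathway genes than any other dog.

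The features that carried these counts were of 2 kinds. DKK3, FZD6, RSPO1, SFRP2 and WNT5A were counted over exons of canine RefSeq models, and the other 46 genes over the whole interval of a human model aligned to the dog genome (build UU_Cfam_GSD_1.0, also called canFam4), introns included. All 51 features overlapped the RefSeq gene of the same symbol, and 44 covered at least 90% of it. The features of WNT5B and WNT8A covered under 50% of it, so their counts describe only part of the gene. Some features also reached beyond the RefSeq gene. Of the feature itself, 56.3% lay inside that gene for WNT9B, 9.25% for FZD5, 73.2% for WNT2B and 78.5% for WNT16. Reads were counted without regard to strand and could be assigned to more than 1 feature. PRSS23 lies over 72.3% of the FZD4 feature on the opposite strand and had 403784 counts against 193829 for FZD4. ST7L likewise lies over 32.3% of the WNT2B feature and had 56333 counts against 3702. Reads of FZD4 and WNT2B therefore cannot be told apart from those of their partners.

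Several ligand genes lie side by side in the dog genome. WNT9B (chr9:16695500-16702675) is 41.1 kb from WNT3 (chr9:16743753-16795272). WNT6 (chr37:25319631-25333316) is 5.8 kb from WNT10A (chr37:25339120-25351266), and WNT10B (chr27:41044507-41052994) is 5.22 kb from WNT1 (chr27:41058211-41061867). WNT3A (chr14:542112-590168) is 29.8 kb from WNT9A (chr14:619946-641087). In each pair the same neighbour was the higher in CPM and per kilobase of feature, in all 34 dogs except 3 for WNT10B and WNT1. WNT9B had a median of 61.1 CPM beside 3.16 CPM for WNT3, WNT9A had 9.87 CPM beside a WNT3A that was at 0 in 25 dogs, WNT10A had 2.85 CPM beside 0.314 CPM for WNT6, and WNT10B had 0.387 CPM beside a WNT1 that was at 0 in 18 dogs.

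**Figure D1:**
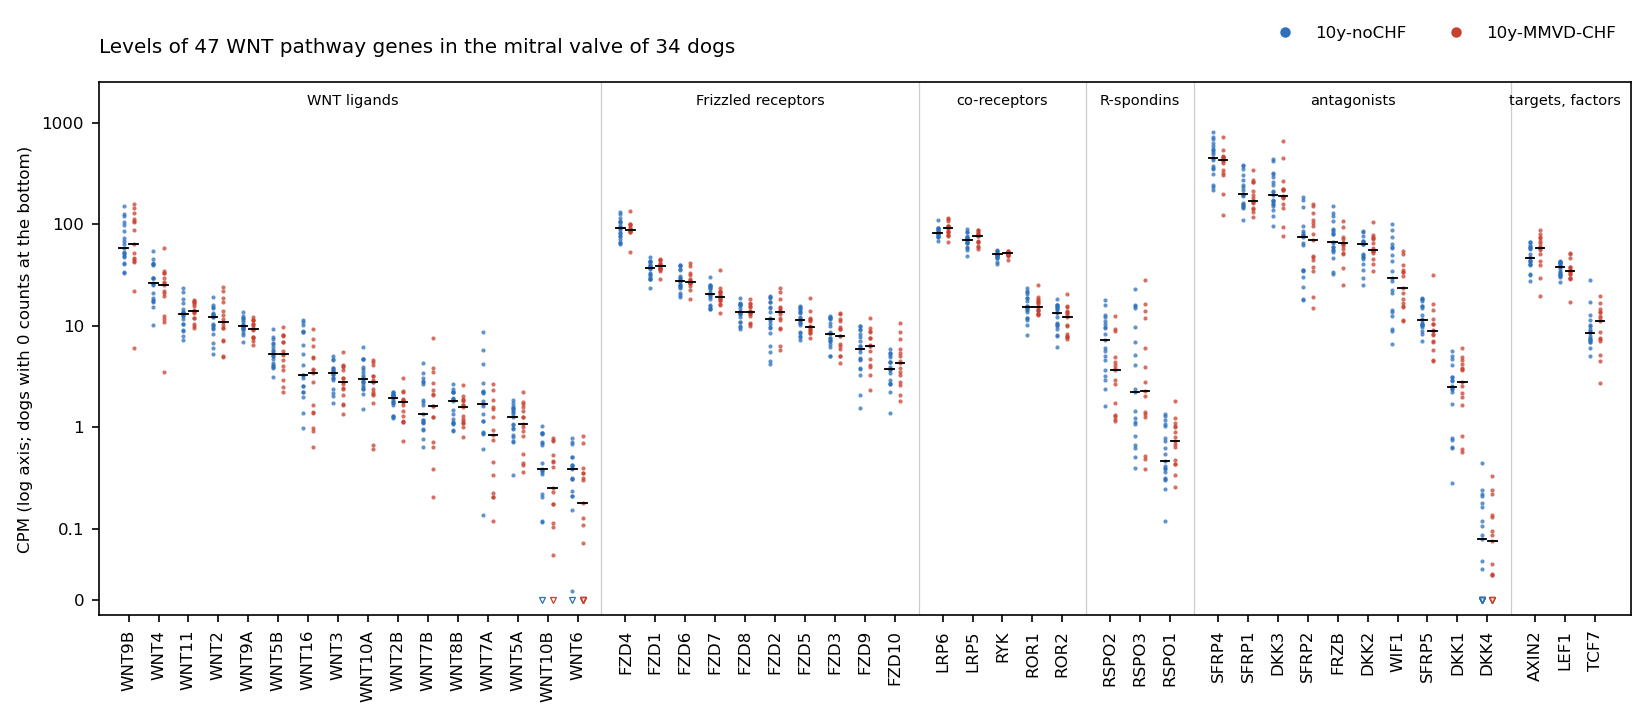
Levels of the WNT pathway genes in the 34 mitral valves by role, on a log axis in CPM, each point a dog coloured by group. SFRP4 is the gene with most counts among the antagonists, at a median of 445 CPM, and WNT9B among the ligands, at 61.1 CPM, and the points of 10y-noCHF and 10y-MMVD-CHF dogs overlap for every gene.

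Levels of different genes are not on 1 scale here, because the features taken from human models hold introns of very different length. No order of expression is therefore drawn between the 5 genes counted over exons and other genes. An order between other genes is given only where CPM and CPM per kilobase of feature give the same one. Statements on counts or CPM alone, and the choice of genes to describe, took in features of both kinds. Among ligands, WNT9B, best known from kidney and face development, was above WNT4 in all 34 dogs and above WNT11 in 33 on both scales, at a median of 4.92 CPM per kb. Its level ranged from 33.2 to 150.0 CPM with a median of 58.0 in 10y-noCHF and from 6.05 to 157 CPM with a median of 64.3 in 10y-MMVD-CHF, so the groups overlapped almost fully at the upper end and the lowest value was from a dog with CHF. WNT4, which patterns kidney and gonad, had a median of 0.958 CPM per kb and was above WNT11 in 29 dogs in CPM and in 24 per kilobase. It ranged from 10.2 to 54.4 CPM (median 26.5) in 10y-noCHF and from 3.51 to 57.9 CPM (median 25.2) in 10y-MMVD-CHF. The groups overlapped for both ligands. WNT5A, the typical ligand of ROR receptors, ranged from 0.340 to 1.87 CPM (median 1.25) in 10y-noCHF and from 0.360 to 2.24 CPM (median 1.07) in 10y-MMVD-CHF. At the low end, WNT10B had no counts in 2 dogs and WNT6 none in 5.

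All 10 Frizzled genes were present in every dog. FZD6 ranged from 19.2 to 40.1 CPM (median 27.8) in 10y-noCHF and from 18.3 to 41.4 CPM (median 27.2) in 10y-MMVD-CHF. FZD4, the receptor also used by norrin in blood vessels, ranged from 63.3 to 133 CPM (median 91.0) in 10y-noCHF and from 53.2 to 136 CPM (median 88.7) in 10y-MMVD-CHF. For both receptors 13 of 15 dogs with CHF lay within the range of the other group. FZD4, with the reservation on PRSS23 reads given above, exceeded FZD1 in all 34 dogs on both scales. FZD1 exceeded FZD7, a closely related receptor, in 34 dogs in CPM and in 20 per kilobase. FZD3 exceeded FZD10 in 30 dogs in CPM and in 0 per kilobase, so the 2 could not be ordered. FZD2, FZD9 and FZD10 varied most among dogs, with coefficients of variation of 39.1%, 41.4% and 45.3%, against 15.04% for FZD1.

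RYK, LRP6 and LRP5 varied little among dogs. RYK, a receptor with an inactive kinase, had the smallest spread of all 47 tested genes. It ranged from 40.2 to 55.7 CPM with a median of 50.6 in 10y-noCHF and from 44.5 to 54.5 CPM with a median of 52.0 in 10y-MMVD-CHF, a coefficient of variation of 6.79% over all dogs. LRP5 was above RYK in 33 of 34 dogs in CPM and in 31 per kilobase. LRP6 was above LRP5 in 30 dogs in CPM and in 1 per kilobase, so the co-receptors could not be ordered. LRP5, LRP6 and RYK were above ROR2 and ROR1, the receptor kinases that bind WNT5A, in every dog on both scales.

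R-spondins were scarce and variable. RSPO3 ranged from 0.400 to 22.9 CPM (median 2.204) in 10y-noCHF and from 0.387 to 28.1 CPM (median 2.29) in 10y-MMVD-CHF, a 72.5-fold range over the 34 dogs. RSPO1 ranged from 0.120 to 1.36 CPM (median 0.467) in 10y-noCHF and from 0.256 to 1.82 CPM (median 0.727) in 10y-MMVD-CHF. RSPO4 had 30 counts in all and none in 30 dogs.

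The secreted antagonists included the genes with the highest CPM of all roles. SFRP4 ranged from 219 to 817 CPM (median 450.3) in 10y-noCHF and from 123 to 717 CPM (median 425) in 10y-MMVD-CHF, and it exceeded SFRP1, also a WNT-binding protein, in 29 dogs in CPM and in all 34 per kilobase. DKK3, a DKK family member that differs from the others in its action on LRP6, ranged from 96.4 to 439 CPM (median 193) in 10y-noCHF and from 77.2 to 659 CPM (median 188) in 10y-MMVD-CHF. SFRP2 ranged from 17.9 to 184 CPM (median 75.6) in 10y-noCHF and from 14.9 to 158 CPM (median 70.3) in 10y-MMVD-CHF. The groups overlapped for all 3, and the highest DKK3 value, 659 CPM, came from CAV1047. DKK4 was barely present, with no counts in 9 dogs and a median of 0.0771 CPM.

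No WNT ligand, receptor or antagonist passed the test between the groups. In edgeR's quasi-likelihood test with sex in the model, 0 of 47 genes had a Benjamini-Hochberg adjusted p (FDR) below 0.1, against 23 of 19568 features (0.118%) in the whole table. At an unadjusted p below 0.05 there were 2 of 47 genes with edgeR (4.26%, against 6.31% of all features), 2 with DESeq2 and 6 with limma voom. The median log2 fold change (10y-MMVD-CHF minus 10y-noCHF, all fold changes below in this direction) was -0.013 over the 47 genes, with 22 above and 25 below 0, and 0.0076 over all features. Single genes ran from -1.13 to 0.33. By role the medians were -0.13 for ligands, 0.011 for Frizzled receptors, 0.047 for co-receptors and alternative receptors, 0.22 for R-spondins and -0.12 for antagonists. The 2 genes below an unadjusted p of 0.05 were WNT7A and RSPO2, both with lower values in 10y-MMVD-CHF (3.51% of all features were lower at this p). Among markers of other cells none passed between the groups, but some lists lay wholly on 1 side of 0 in the same contrast. All 4 adipocyte markers were below 0 (median -0.999, summed level 0.9746 to 64.7 CPM in 10y-noCHF and 0.652 to 50.3 CPM in 10y-MMVD-CHF). All 4 Schwann cell markers were below 0 as well (median -0.173). All 8 macrophage markers (median 0.203) and all 6 red blood cell markers (median 0.90, HBA1 and HBA2 with the same values) were above 0. Their part in the values of WNT7A and RSPO2 was not tested. In bulk tissue, fewer cells of a type and less RNA per cell cannot be told apart.

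WNT7A (chr20:4102223-4168959), a ligand studied in limb, muscle and blood vessels of the brain, ranged from 0.135 to 8.61 CPM with a median of 1.69 in 10y-noCHF and from 0.119 to 2.69 CPM with a median of 0.843 in 10y-MMVD-CHF. The groups overlapped: 14 of the 15 dogs with CHF lay within the range of the other group, but 12 of 15 lay below its median. The log2 fold change was -1.13 (95% confidence interval -1.98 to -0.28, SE 0.42, FDR 0.607 by edgeR). RSPO2 (chr13:8823008-8971462), a secreted amplifier of WNT signals, ranged from 1.62 to 18.05 CPM with a median of 7.20 in 10y-noCHF and from 1.15 to 12.4 CPM with a median of 3.68 in 10y-MMVD-CHF. For it too 12 of 15 dogs with CHF were below the median of the other group, and 11 were within its range. Its log2 fold change was -0.87 (95% confidence interval -1.58 to -0.16, SE 0.35, FDR 0.662 by edgeR). On the slope with heart muscle RNA described further on, neither gene passed (FDR 0.561 and 0.256). Over 13 settings, among them the main fit and fits without CAV614 or without CAV614 and CAV1047, the fold change of WNT7A stayed between -1.29 and -0.96. For RSPO2 it stayed between -1.08 and -0.80, and the FDR was at least 0.308 in all settings. Among these, a stricter FDR threshold and the choice of human features could not change the values of either gene. With each single dog left out in turn, the ranges were wider. The fold change of WNT7A then ran from -1.38 (without CAV1872) to -0.92 (without CAV488). That of RSPO2 ran from -1.09 (without CAV1097) to -0.74 (without CAV743).

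**Figure D2:**
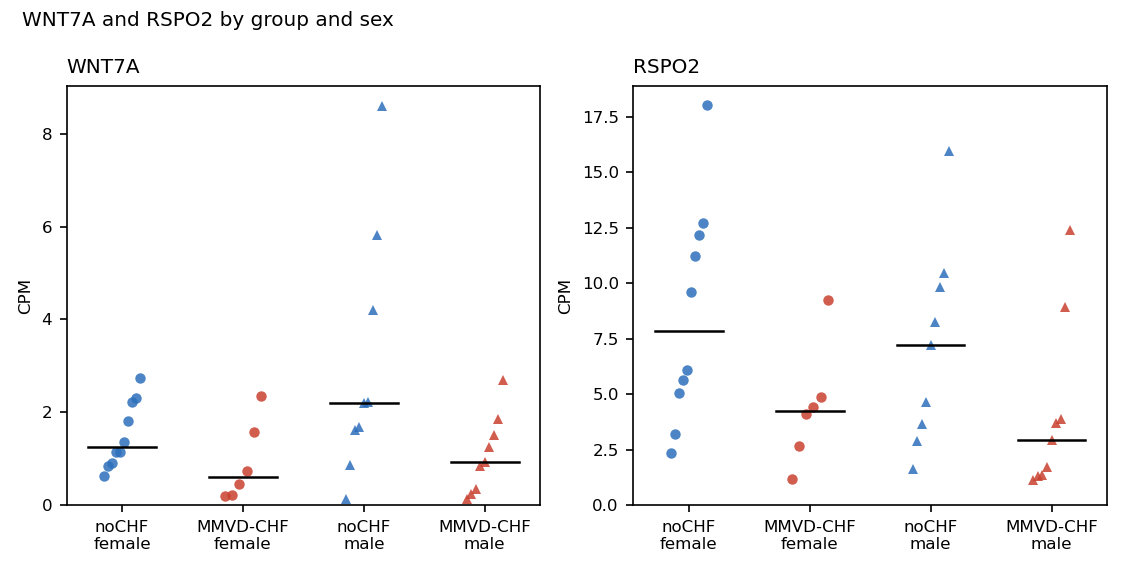
Levels of WNT7A and RSPO2 in each dog by group and sex, in CPM, with medians as lines. For both genes 12 of 15 dogs with CHF lie below the 10y-noCHF median, the highest values are from 10y-noCHF dogs (8.61 and 18.05 CPM), and the groups overlap.

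AXIN2 (chr9:12336357-12367417), which beta-catenin switches on and which in turn limits the pathway, ranged from 27.9 to 67.6 CPM with a median of 46.7 in 10y-noCHF and from 19.4 to 87.7 CPM with a median of 58.8 in 10y-MMVD-CHF. The dogs with CHF were more spread: 11 of 15 were above the median of the other group, and 6 lay outside its range. The log2 fold change was 0.25 (95% confidence interval -0.06 to 0.56, FDR 0.848 by edgeR), and the interval spanned 0. LEF1, a transcription factor that pairs with beta-catenin, ranged from 26.7 to 43.3 CPM (median 37.7) in 10y-noCHF and from 16.96 to 51.6 CPM (median 34.4) in 10y-MMVD-CHF. TCF7, of the same family and known in T cells, ranged from 5.01 to 28.1 CPM (median 8.56) in 10y-noCHF and from 2.75 to 19.6 CPM (median 11.1) in 10y-MMVD-CHF. Their log2 fold changes were -0.046 and 0.080, with FDR values of 0.972 and 0.978.

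For genes with narrow ranges the intervals allowed only small differences. The 95% interval of the log2 fold change was -0.03 to 0.12 for RYK, -0.05 to 0.26 for FZD1, -0.06 to 0.24 for LRP5 and -0.20 to 0.21 for FZD4. FZD1 ranged from 23.7 to 47.3 CPM (median 37.4) in 10y-noCHF and from 29.1 to 45.0 CPM (median 38.9) in 10y-MMVD-CHF. LRP5, a co-receptor best known from bone mass, ranged from 48.5 to 90.2 CPM (median 70.1) in 10y-noCHF and from 57.3 to 88.2 CPM (median 77.0) in 10y-MMVD-CHF. For both genes all 15 dogs with CHF lay inside the range of the other group. LRP6 ranged from 69.0 to 109.7 CPM (median 82.4) in 10y-noCHF and from 66.2 to 115 CPM (median 91.3) in 10y-MMVD-CHF, where 11 of 15 dogs were above the 10y-noCHF median, with a log2 fold change of 0.12 (FDR 0.813 by edgeR). For genes with a wide range the intervals were wide as well: -1.03 to 1.46 for RSPO3, -0.67 to 0.66 for SFRP2, -0.39 to 0.55 for DKK3, -0.46 to 0.72 for WNT9B and -0.61 to 0.15 for SFRP4. These intervals allowed differences as large as their ends.

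The ligands and antagonists outside these examples overlapped between groups in the same way. WNT2, a ligand of lung and placenta, had medians of 12.1 CPM in 10y-noCHF and 11.01 CPM in 10y-MMVD-CHF, and WNT9A had 9.90 and 9.20 CPM. SFRP1 ranged from 110.1 to 387 CPM (median 197) in 10y-noCHF and from 118 to 341 CPM (median 169.8) in 10y-MMVD-CHF, with all 15 dogs with CHF inside the range of the other group. WIF1, which binds WNT ligands outside the cell, ranged from 6.63 to 102 CPM (median 29.4) in 10y-noCHF and from 11.03 to 54.3 CPM (median 23.6) in 10y-MMVD-CHF. Its log2 fold change of -0.47 had a 95% interval of -1.15 to 0.22, and that of SFRP1, -0.17, had one of -0.51 to 0.16. WNT10B and WNT6, the least abundant tested ligands by count, had medians of 0.391 and 0.387 CPM in 10y-noCHF against 0.255 and 0.179 CPM in 10y-MMVD-CHF, and for both the interval spanned 0.

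**Figure D3:**
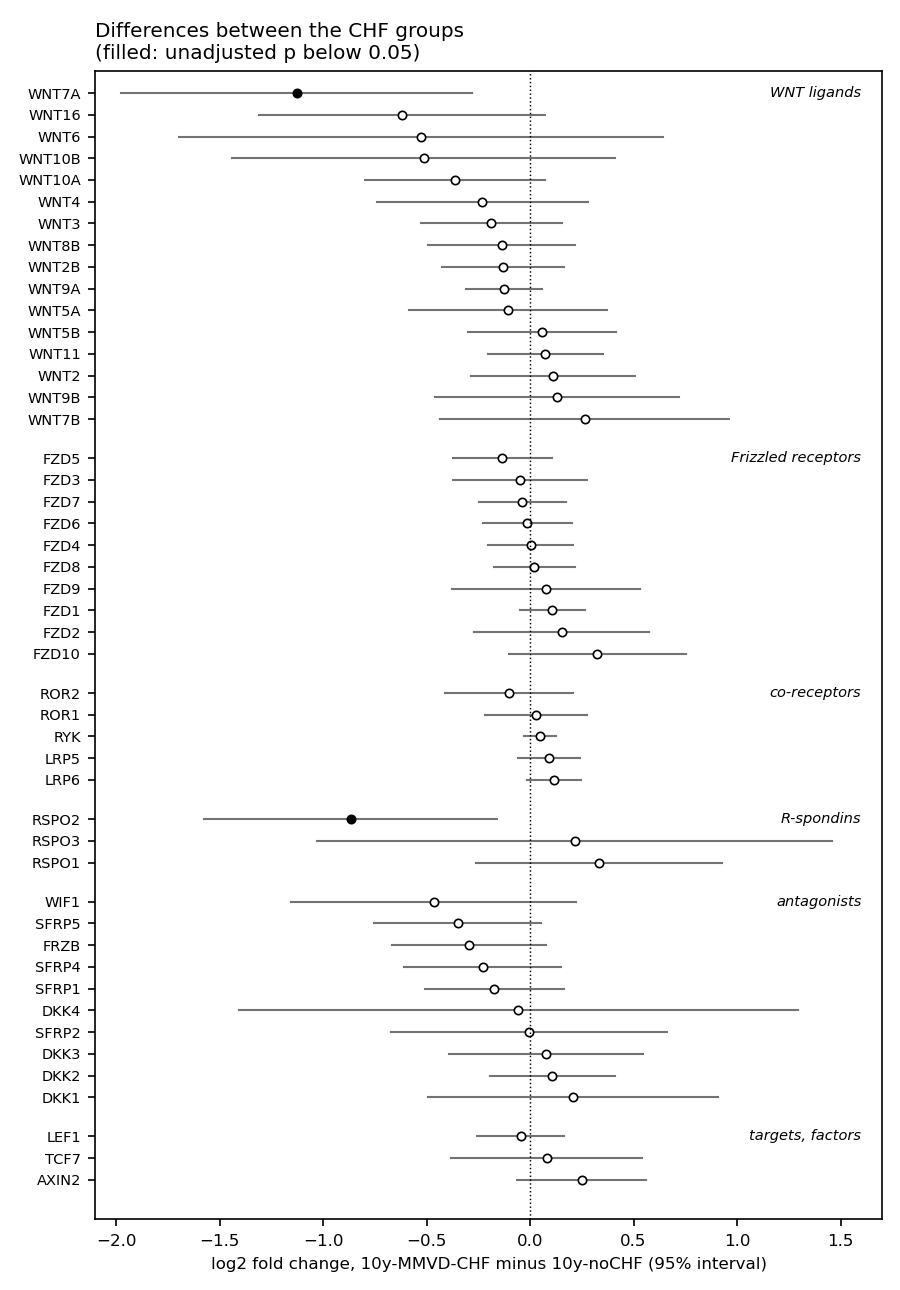
Log2 fold change (10y-MMVD-CHF minus 10y-noCHF) of each tested WNT pathway gene with its 95% confidence interval, ordered by role. The intervals of WNT7A (-1.98 to -0.28) and RSPO2 (-1.58 to -0.16) lie below 0, and none of the genes passes FDR 0.1.

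The genes that act on either side of these proteins were read as a second list of 63 tested genes, from ligand secretion to the nuclear complex. Again 0 of 63 passed FDR 0.1 between the groups with edgeR (0.118% of all features did), and 5 had an unadjusted p below 0.05 (7.94%, against 6.31% of all features), with 5 or 6 under the other settings. TNKS, a tankyrase that marks AXIN proteins for breakdown, had a log2 fold change of 0.21 (SE 0.063, FDR 0.395). CTNNB1, which encodes beta-catenin, had 0.18 (SE 0.060, FDR 0.480). BCL9 and PYGO1, parts of the nuclear beta-catenin complex, had -0.22 (SE 0.068, FDR 0.428) and 0.20 (SE 0.069, FDR 0.498). The median of the list was -0.0056.

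Between females and males, 0 of 47 genes passed FDR 0.1 in edgeR (0.143% of all features did), 2 had an unadjusted p below 0.05 (2.98% of all features did), both lower in females (1.58%), and the other settings gave 1 or 2. WNT16, a ligand best known from bone, ranged from 0.978 to 8.94 CPM with a median of 2.56 in females and from 0.643 to 11.5 CPM with a median of 5.09 in males. Its log2 difference (female minus male) was -0.84 (SE 0.34, unadjusted p = 0.0176 by edgeR). SFRP5, an antagonist known from fat tissue, ranged from 4.56 to 18.8 CPM (median 9.33) in females and from 4.498 to 31.9 CPM (median 10.6) in males, with a log2 difference of -0.42 (SE 0.20, unadjusted p = 0.0396 by edgeR). The sexes overlapped for both genes, and the FDR was 0.9997 for each. The 6 red blood cell markers, HBA1 and HBA2 with the same values, were all below 0 in this contrast (median -2.66). The 5 smooth muscle markers were all below 0 as well (median -0.149). The 4 adipocyte markers were all above 0 (median 1.14). Of these lists 0 were called, and their part in the contrast was not tested.

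The difference between groups was also compared between the sexes, by the interaction term of edgeR's quasi-likelihood fit. No gene passed FDR 0.1, among the 47 or in the whole table (0%). An unadjusted p below 0.05 was seen for 3 of 47 genes (6.38%), a share near that of all features (6.02%). All 3 had a positive term (3.16% of all features did), and the other settings gave 3 or 4 genes at this p. The 3 genes were LRP6, LRP5 and FZD7. LRP6 ranged from 91.3 to 115 CPM (median 96.4) in females with CHF and from 74.8 to 89.7 CPM (median 83.1) in females without CHF. These ranges of the females did not overlap, but how many of all features separate the females in this way was not counted. In males LRP6 ranged from 66.2 to 113 CPM (median 83.6) with CHF and from 69.0 to 109.7 CPM (median 82.3) without, and these ranges overlapped almost fully. The interaction, on the log2 scale the difference in females minus that in males, was 0.30 for LRP6 (SE 0.12, FDR 0.815 by edgeR), 0.31 for LRP5 (SE 0.14, FDR 0.817) and 0.42 for FZD7 (SE 0.20, FDR 0.829). Markers had terms of this size too. All 8 valve interstitial (median 0.35), all 8 macrophage (median 0.28) and all 4 T lymphocyte markers (median 1.79) were above 0. All 4 adipocyte markers were below 0 (median -0.4). Of these lists 0 were called, and their part in the interaction was not tested. None of the 3 genes passed the correction, and LRP6 was singled out after its values were seen.

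How the genes went with heart muscle RNA was tested because the amount of it varied so widely among valves. For each dog the mean log2 CPM of 18 cardiomyocyte genes was taken, which ran from -0.48 in CAV749, a dog of the 10y-noCHF group, to 10.67 in CAV1047. The medians of 10y-noCHF and 10y-MMVD-CHF were 6.62 and 7.32. The slope of each gene on this mean, with sex and CHF status in the model, is given as log2 units per log2 unit of muscle mean. It passed FDR 0.1 for 18 of 47 genes (38.3%), a share near that of the whole table (37.3%), with 4 genes higher and 14 lower (19% and 18.3% of all features). The median slope was -0.026 over the 47 genes, with 36 below 0, and -0.0059 over all features.

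RSPO3 (chr1:66412775-66496470), a secreted amplifier made by blood vessel cells among others, had the steepest slope, 0.55 (SE 0.056, FDR 9.25e-10). It was 0.400 CPM in CAV749 and 28.1 CPM in CAV1047, the dogs at the ends of the muscle scale. DKK3 rose with heart muscle RNA as well, with a slope of 0.16 (SE 0.023, FDR 1.72e-06) and levels of 157 and 659 CPM in the same dogs. ROR2 had a slope of 0.088 (FDR 0.00053). WNT11, a ligand needed for heart muscle formation in the embryo, had the smallest positive slope of those that passed, 0.047 (FDR 0.0860). Its call was lost in 11 of 34 fits with 1 dog left out, and its slope was 0.0090 within 10y-MMVD-CHF. ROR2 ranged from 6.16 to 18.5 CPM (median 13.2) in 10y-noCHF and from 7.34 to 20.5 CPM (median 12.1) in 10y-MMVD-CHF. WNT11 ranged from 7.23 to 23.7 CPM (median 12.98) in 10y-noCHF and from 9.61 to 18.01 CPM (median 14.1) in 10y-MMVD-CHF.

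The 14 genes that fell as heart muscle RNA rose came from every role. Among ligands they were WNT16, WNT7B, WNT10A and WNT3, with slopes of -0.18, -0.14, -0.099 and -0.079. WNT16 ranged from 0.978 to 11.5 CPM (median 3.31) in 10y-noCHF and from 0.643 to 9.37 CPM (median 3.46) in 10y-MMVD-CHF, and it was 10.8 CPM in CAV749 against 1.38 CPM in CAV1047. WNT7B, known from lung and kidney, ranged from 0.632 to 4.25 CPM (median 1.35) in 10y-noCHF and from 0.207 to 7.60 CPM (median 1.63) in 10y-MMVD-CHF. The upper end of WNT7B thus lay in the dogs with CHF. WNT10A, known from teeth and skin appendages, ranged from 1.51 to 6.16 CPM (median 3.02) in 10y-noCHF and from 0.615 to 4.61 CPM (median 2.77) in 10y-MMVD-CHF. WNT3 ranged from 1.72 to 5.08 CPM (median 3.41) and from 1.35 to 5.48 CPM (median 2.81) in the same order of groups.

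Among receptors, FZD2, FZD10, FZD9, ROR1 and RYK had negative slopes of -0.12, -0.11, -0.10, -0.041 and -0.015. The call of ROR1 was lost in 16 of 34 fits with 1 dog left out and that of RYK without CAV1047. FZD2, FZD9 and FZD10 were also the Frizzled genes that varied most. FZD2 ranged from 4.24 to 19.7 CPM (median 11.7) in 10y-noCHF and from 5.79 to 23.8 CPM (median 13.7) in 10y-MMVD-CHF. FZD9 ranged from 1.54 to 10.03 CPM (median 5.85) in 10y-noCHF and from 2.32 to 12.04 CPM (median 6.30) in 10y-MMVD-CHF. For these receptors both ends of the range were a little higher in dogs with CHF, within the spread. ROR1, a receptor kinase of the embryo, ranged from 8.10 to 23.8 CPM (median 15.3) in 10y-noCHF and from 12.9 to 25.1 CPM (median 15.5) in 10y-MMVD-CHF.

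Among the remaining roles, RSPO1 had a slope of -0.14 (FDR 0.0122), SFRP4 -0.11 (FDR 0.000842), AXIN2 -0.10 (FDR 1.64e-05), FRZB -0.099 (FDR 0.00158) and DKK2 -0.070 (FDR 0.0120). SFRP4 was 817 CPM in CAV749 and 306 CPM in CAV1047, and AXIN2 was 57.0 and 19.4 CPM in the same dogs. FRZB, an antagonist first found in cartilage, ranged from 32.2 to 150.1 CPM (median 67.4) in 10y-noCHF and from 25.5 to 107 CPM (median 64.7) in 10y-MMVD-CHF. DKK2, an LRP6 ligand, ranged from 25.3 to 85.1 CPM (median 63.2) in 10y-noCHF and from 34.9 to 106 CPM (median 56.1) in 10y-MMVD-CHF. The R-spondins thus had members on both sides: RSPO3 went up and RSPO1 went down with heart muscle RNA.

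**Figure D4:**
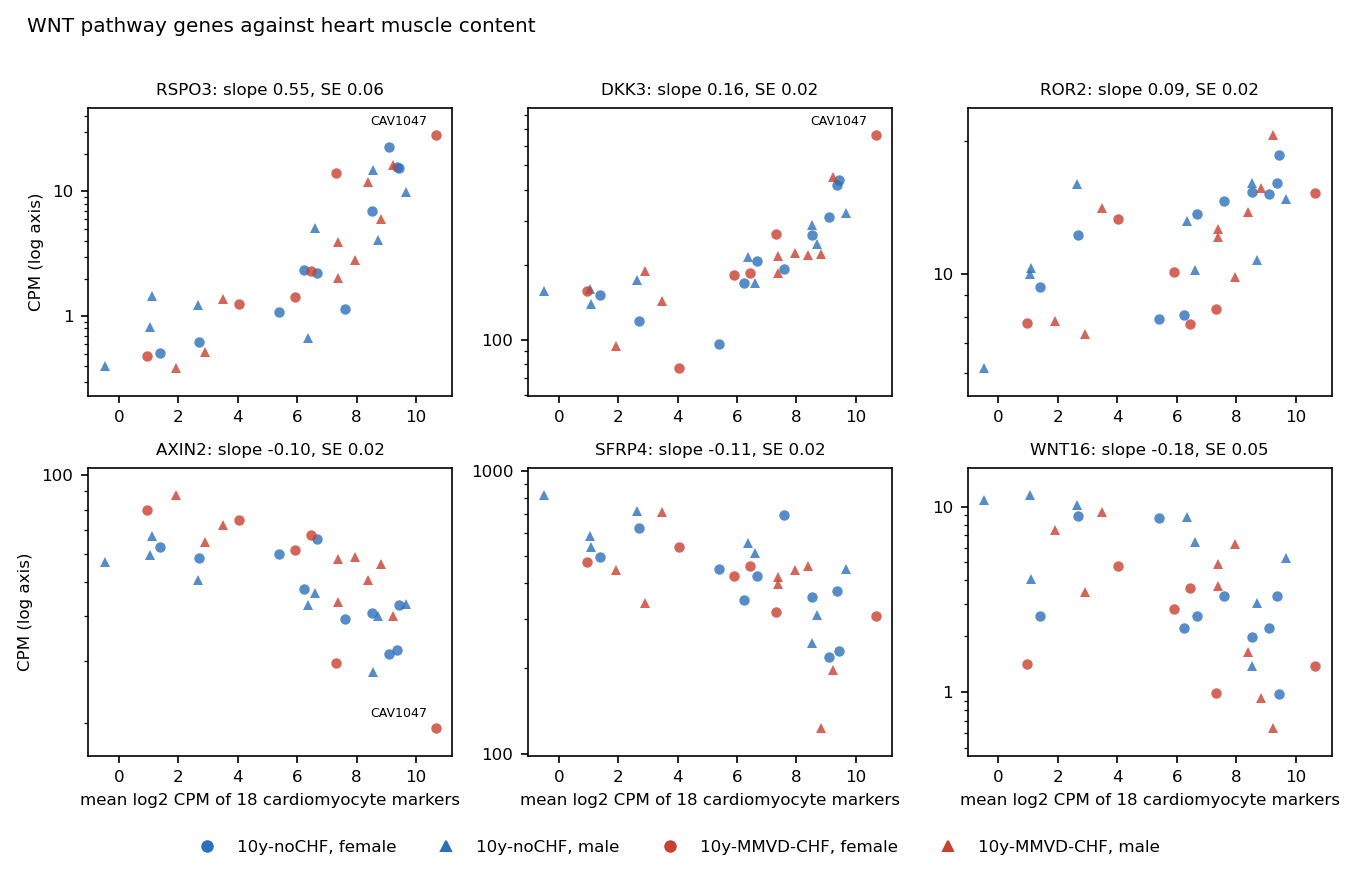
Levels of 6 WNT pathway genes (log axis, CPM) against the mean log2 CPM of 18 cardiomyocyte genes, 1 point a dog, coloured by group. RSPO3, DKK3 and ROR2 rise and AXIN2, SFRP4 and WNT16 fall from CAV749 at the left to CAV1047 at the right, in both groups.

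All 18 genes kept the sign of their slope within 10y-noCHF dogs alone, where 11 of them passed, and within 10y-MMVD-CHF dogs alone, where 9 passed. Of all features, 21.4% and 25.6% passed within these groups. The 18 genes were chosen over these same dogs, so the kept signs are no separate evidence. Other cell markers moved with heart muscle RNA as well: 7 of 8 valve interstitial cell markers, 4 of 5 smooth muscle markers and 6 of 8 macrophage markers were lower where it was high, and 3 of 4 Schwann cell and 3 of 4 adipocyte markers were higher. The median slope was -0.069 for the interstitial and -0.085 for the smooth muscle markers. With the mean of the valve interstitial markers added to the model, 21.9% of all features passed. Of the 18 genes, 8 passed: RSPO3, DKK3, ROR2, AXIN2, FZD10, WNT16, WNT3 and WNT7B. The slopes of RSPO3 and AXIN2 were then 0.48 and -0.096, and that of WNT7B was steeper, -0.24. WNT10A had a similar slope, -0.091, but did not pass (FDR 0.133). The slopes of RSPO1, DKK2 and ROR1 were nearer 0 or past it, at -0.050, -0.019 and 0.012. The part of other cell types in these slopes was not tested further.

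Of the 63 surrounding pathway genes, 26 passed on the muscle slope (41.3%, against 37.3% of all features), 8 higher (12.7%, against 19%) and 18 lower (28.6%, against 18.3%). DACT2 and RNF43 had the steepest positive slopes, 0.49 (SE 0.10) and 0.24 (SE 0.031). RNF43 is the membrane ligase that removes Frizzled receptors unless R-spondin holds it back. Among the negative ones were PORCN, which lipid-modifies WNT ligands, at -0.060, and the feedback genes NKD1 and NOTUM at -0.090 and -0.11.

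Since AXIN2 follows beta-catenin activity, the genes that varied with it among dogs were tested next, with sex, CHF status and the muscle mean in the model. The slope is in log2 units per log2 unit of AXIN2. Of the other 46 genes, 10 passed FDR 0.1 (21.7%, against 8.57% of all features), 7 higher (3.29% of all features) and 3 lower (5.27% of all features). All 10 calls depended on CAV1047, the dog with the lowest AXIN2 and the most heart muscle RNA. Without it, 0 of 46 genes passed in edgeR, 13 had an unadjusted p below 0.05 and 27 features passed in the whole table. All 10 genes kept their sign without it, with FDR values from 0.189 to 0.598. Among the 19 dogs of the 10y-noCHF group alone, 0 of 46 genes passed (0% of all features did) and 4 had an unadjusted p below 0.05, of the 10 only SFRP2. Within that group the 10 slopes kept their sign, but that of WNT4 was 0.14, of WNT10A 0.25, of TCF7 0.56 and of WNT9B 0.79, while SFRP2 had 2.09 and DKK1 1.85. The 10 genes were chosen over all 34 dogs, so signs kept in a part of these dogs are no separate evidence. The values below are therefore given as measured over all 34 dogs.

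DKK1, an LRP6 antagonist that is itself a beta-catenin target, had a slope of 1.67 (SE 0.51, FDR 0.0539). It ranged from 0.283 to 5.63 CPM (median 2.51) in 10y-noCHF and from 0.568 to 6.04 CPM (median 2.79) in 10y-MMVD-CHF. WNT9B had 1.64 (SE 0.45, FDR 0.0377), SFRP2 1.56 (SE 0.46, FDR 0.0499), WNT4 1.32 (SE 0.41, FDR 0.0583) and TCF7 1.21 (SE 0.34, FDR 0.0421). FZD10 had 0.94 (SE 0.26, FDR 0.0382) and ranged from 1.38 to 5.94 CPM (median 3.77) in 10y-noCHF and from 1.79 to 10.6 CPM (median 4.28) in 10y-MMVD-CHF. WNT10A had 0.93 (SE 0.29, FDR 0.0598). Without CAV1047 the slope of WNT9B was 1.14 and that of WNT4 0.86.

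The 3 genes with lower levels where AXIN2 was high were RSPO3 with -1.53 (SE 0.41, FDR 0.0346), DKK3 with -0.79 (SE 0.18, FDR 0.0197) and WNT2B with -0.58 (SE 0.20, FDR 0.0852), whose call was also lost in 13 of 34 fits with 1 dog left out. RSPO3 and DKK3 were also among the 4 genes that rose with heart muscle RNA. Without CAV1047 the slope of RSPO3 was -1.75. WNT2B, whose reads cannot be told from those of ST7L, ranged from 1.24 to 2.23 CPM (median 1.95) in 10y-noCHF and from 0.728 to 3.02 CPM (median 1.76) in 10y-MMVD-CHF. LEF1, the other transcription factor gene, did not pass, with a slope of 0.25 (SE 0.16, FDR 0.388).

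**Figure D5:**
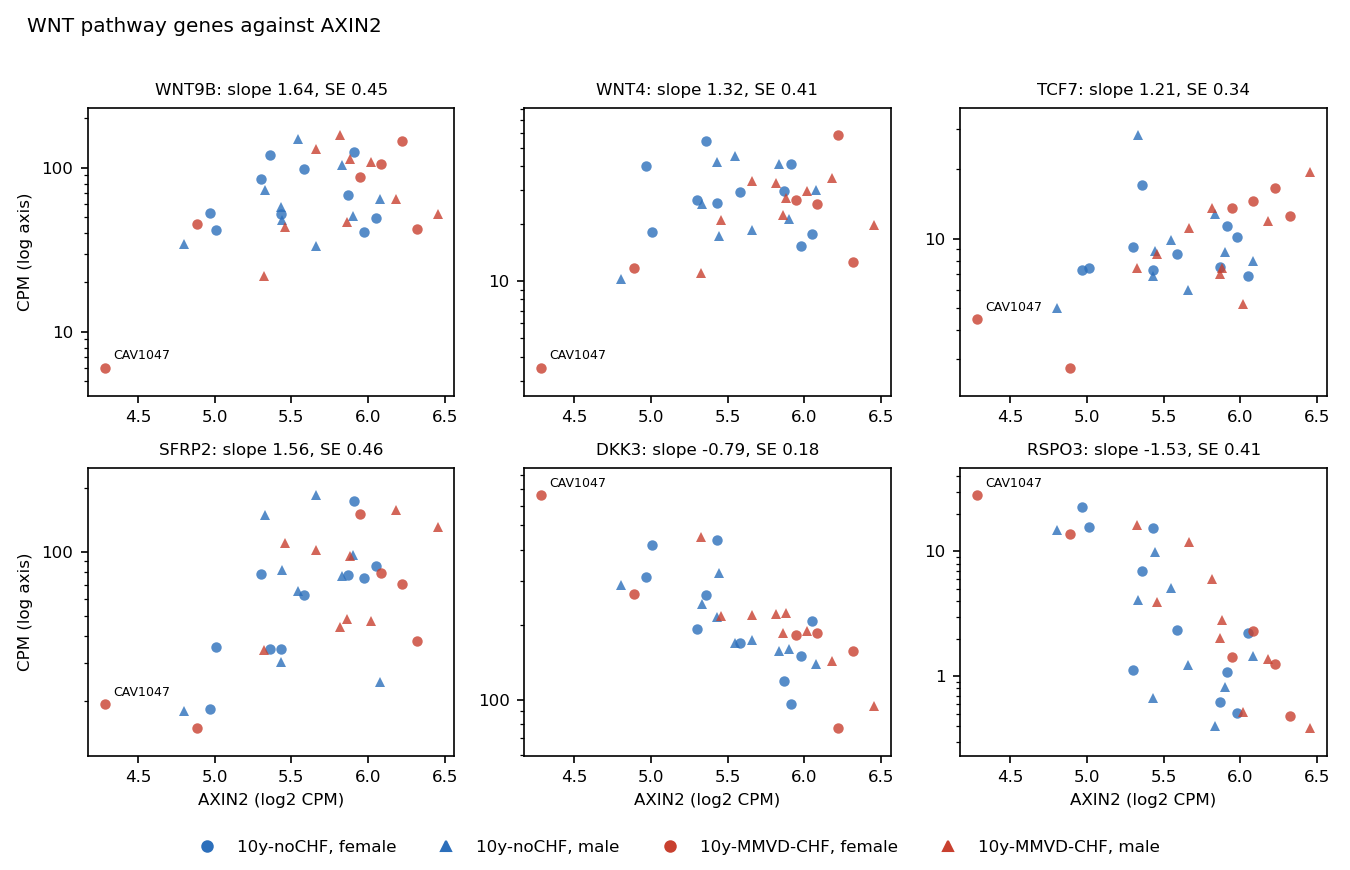
Levels of 6 WNT pathway genes (CPM, log axis) against AXIN2 (log2 CPM), 1 point a dog, coloured by group and shaped by sex. CAV1047 lies alone at the lowest AXIN2 level, 4.28, with the next dog at 4.802 and the highest at 6.45, and the points of WNT9B and WNT4 at higher AXIN2 form no narrow line.

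With the mean of macrophage markers added to this model, 0 of 46 genes passed in edgeR, 12 had an unadjusted p below 0.05, and the FDR values of the 10 genes were from 0.102 to 0.235. Their slopes kept their sign and were 0.763 to 1.11 times those of the model without it, for example 1.35 for WNT4 and 1.19 for SFRP2. With the mean of valve interstitial markers, all 10 passed, as did 7.77% of all features. Of the marker lists, 1 of 8 macrophage markers (CD14) and 1 of 8 valve interstitial markers (POSTN, slope 0.56, FDR 0.0507) were higher and 3 of 18 cardiomyocyte markers (PLN, TNNT2 and RYR2) were lower where AXIN2 was high. The median slope of the macrophage markers was 0.37 and that of the valve interstitial markers 0.028. Their part in the AXIN2 slopes was not tested further. Of the 63 surrounding pathway genes, 11 passed on the AXIN2 slope (17.5%, against 8.57% of all features), among them the negative feedback genes APCDD1 with 1.17 (SE 0.18, FDR 0.00148), NOTUM with 1.62 (SE 0.33, FDR 0.0105) and NKD1 with 0.63 (SE 0.15, FDR 0.0192). The polarity genes CELSR1 and CELSR2 were lower where AXIN2 was high, with slopes of -0.81 and -0.80. Whether the calls of this list hold without CAV1047 or with the macrophage mean was not tested. In those fits 0.138% and 1.14% of all features passed.

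Some dogs stood at the ends of many of these genes. CAV614 was the highest or the lowest dog for 12 of 47 genes (25.5%) and for 15.3% of all features. It was highest for AXIN2, DKK1, FZD2, FZD9 and FZD10 and lowest for FZD4, FZD6, FZD7, LRP6 and RSPO3. CAV1047 was at an end for 9 genes (19.1%) and for 31.1% of all features. CAV1876, a female with CHF, was at an end for 7 genes (14.9%), at the low end for 6 of them, and for 3.26% of all features. No count of this kind was tested.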

How the data were processed

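Poly-A RNA of 34 mitral valves was sequenced as paired reads. The authors mapped reads with STAR to canFam4 (UU_Cfam_GSD_1.0) and deposited the table of raw counts that featureCounts 2.0.3 gave for each feature, without strand, with each read of a pair counted and with reads assigned to every feature they overlap. Features combined canine RefSeq genes and aligned human genes. For the 5 members with both kinds, the canine feature was used. The table also held 1 column of no sample, which was not used. Quality was checked by the authors with FastQC.

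Groups and sex came from the sample labels. The members and lists were chosen with earlier results of these data known. Features with at least 100 counts over all dogs (19568) were tested with edgeR 4.0.16 (R 4.3.3), TMM normalization, sex as a fixed effect and quasi-likelihood F tests, with Benjamini-Hochberg adjustment over all features and an FDR threshold of 0.1. DESeq2 1.42.0, limma 3.58.1 (voom with sample weights), other normalizations, filters and covariates, single dogs left out, and CAV614 and CAV1047 left out together were alternatives. Marker means other than heart muscle as covariates of the slopes, fits without CAV1047 or CAV614 alone, and slopes within a group were chosen after seeing the data. SE values were derived from the F statistics and are approximate. CPM values use TMM-scaled library sizes. Coordinates are those of the RefSeq table. The scripts were tested on simulated data. All members were accounted for by role; group values were given for members with an FDR below 0.1 in any test, with an unadjusted p below 0.05 between groups, for the 3 of highest CPM per kilobase in each role, and for AXIN2, LEF1 and TCF7, and of the surrounding pathway list for the 4 genes of smallest p between groups. Other genes named for their slopes, sex difference or interaction were chosen after their values were seen. Total counts set the precision of low genes, and the number of dogs sets that of the others.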

Additional observations from a re-analysis of the deposited data

Results flagged for a closer look

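Of 76 tests for a dog far from the rest of its group and sex, run at both ends of 19 genes in the groups of 4 to 10 dogs, 9 gave a dog beyond Dixon's limit. For normally distributed values and independent tests, chance gives about 1 in 20 tests, or 3.8. The values were CPM without a log scale and the genes came from the same dogs. The 9 flags are therefore not read as an excess over 3.8. These flags came from 8 dogs. DKK3 was 659 CPM in CAV1047, with the next female with CHF at 266 CPM, and 448 CPM in CAV373, with the next male with CHF at 223 CPM. CAV1047 also had the lowest RYK of the females with CHF, 44.5 CPM against 51.4 CPM for the next. FZD4 was 136 CPM in CAV1876, with the next female with CHF at 101 CPM, and 53.2 CPM in CAV614, the lowest of the males with CHF, with the next at 83.3 CPM. FZD6 was 41.4 CPM in CAV648, against 29.2 CPM for the next male with CHF. In dogs without CHF, SFRP2 was 172 CPM in CAV576 (next female 85.3 CPM), and TCF7 was 17.1 CPM in CAV1732 (next female 11.3 CPM) and 28.1 CPM in CAV743 (next male 12.8 CPM). The cause of these values was not tested.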

How the results depend on the processing

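No WNT pathway gene passed FDR 0.1 between groups, between sexes or for their interaction under any alternative run. On the muscle slope, 18 genes passed in the main fit and 16 (without CAV1047) to 20 (without CAV1939) with single dogs left out. With the valve interstitial marker mean as a covariate 8 passed (21.9% of all features did). In either group by itself 11 passed (21.4% of all features within 10y-noCHF and 25.6% within 10y-MMVD-CHF). On the AXIN2 slope, 10 passed in the main fit and 0 (without CAV1047) to 12 (without CAV1114) with single dogs left out. There, 4 passed with limma voom (4.83% of all features did), 6 at an FDR threshold of 0.05 (3.79%) and 24 without the muscle mean (40.7%). The count was 0 without CAV614 and CAV1047 (0.0256% of all features) and without CAV1047 alone (0.138%). It was also 0 with the macrophage marker mean (1.14%) and within 10y-noCHF (0%). Between groups, single dogs left out kept 0 members and 0 surrounding pathway genes passing, and between sexes 0.

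Fold changes near 0 between groups changed sign. FZD4 was -0.011 with upper-quartile normalization, -0.0081 with the muscle mean as covariate and -0.0033 with no sex term. FZD6 was 0.0062 with voom, 0.032 without CAV614 and CAV1047 and 0.021 without CAV614. DKK3 was -0.022 with voom, -0.11 without both dogs and -0.058 with the muscle mean. SFRP2 was 0.027 without both dogs, 0.023 with the muscle mean and 0.050 with no sex term. RSPO3 was -0.12 without both dogs and -0.15 with the muscle mean, and TCF7 was -0.0063 without CAV614. The muscle slope of ROR1 was 0.012 with the valve interstitial mean. With single dogs left out, the fold change ran from -0.053 to 0.047 for FZD4, -0.060 to 0.024 for FZD6, -0.20 to 0.13 for SFRP2, -0.090 to 0.020 for LEF1, -0.16 (without CAV1047) to 0.16 for DKK3, -0.21 (without CAV1047) to 0.50 for RSPO3 and -0.0063 (without CAV614) to 0.26 for TCF7. The cause was not tested. No paired analysis was possible because the groups hold different dogs and the labels match no dog to one of the other group. Each dog gave 1 sample.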

Other observations

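The 63 surrounding pathway genes were also read by role. Of 12 planar cell polarity genes, which order cells within a sheet, 3 were higher and 4 lower with heart muscle RNA (19% and 18.3% of all features were), the highest slopes being those of CELSR1 (0.19) and CELSR2 (0.14) and the lowest that of PRICKLE1 (-0.083). Another 15 genes were the DVL genes and those of the destruction complex, and it is the complex that breaks down beta-catenin. Of these 15, 3 were higher, among them APC at 0.040, and 2 were lower, DVL2 at -0.040 and DVL3 at -0.036. Of 12 genes of the nuclear beta-catenin complex, 0 were higher and 4 lower in edgeR's test, from -0.036 for TCF7L2 to -0.071 for TLE4. With AXIN2, none of the 15 DVL and destruction complex genes passed, and 0 of them had an unadjusted p below 0.05 in edgeR's test. Of 6 other secreted or surface antagonists, 3 were higher (3.29% of all features were). Whether those calls hold without CAV1047 was not tested.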
